A study of Mus musculus with 186 samples.

Results

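The genes described here encode the catalytic subunits of protein kinase A (PKA), Prkaca and Prkacb, and its protein kinase inhibitors, Pkia, Pkib and Pkig. They were taken by name from a table of 28338 gene symbols. All 5 were found there, 2 of them catalytic subunits and 3 of them inhibitors, and they were followed across every region, age and genotype.

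Bulk RNA was sequenced in 186 libraries that were dissected from the frozen brains of Akap11 mutant mice, 96 from mice of 4 weeks and 90 from mice of 12 weeks. The regions were striatum (STR), thalamus (TH), substantia nigra (SN), hippocampus (HP), and prefrontal (PFC) and somatosensory (SSC) cortex. The mice were Akap11 -/- (KO), Akap11 +/- (HET) or wild type (WT), and of the 36 groups of region, age and genotype 30 held 5 libraries and 6 held 6. No treatment is named, and neither the labels nor the table give the strain, the sex or the construction of the Akap11 allele. The labels number the samples but do not say that the libraries of a group came from separate mice, so p-values measure the spread between these libraries, which may be technical in part. The tissue is a mixture of cell types, and in such bulk RNA fewer cells of a type and less RNA per cell cannot be told apart.

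PKA rests as a complex of regulatory and catalytic subunits, and cyclic AMP (cAMP) frees the catalytic subunits to phosphorylate their targets. Anchoring proteins such as AKAP11 hold the complex at particular places in the cell. The inhibitors are small proteins that occupy the active site of a free catalytic subunit and carry it out of the nucleus. In striatal projection neurons, PKA is the main effector of dopamine and adenosine receptors that raise or lower cAMP.

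The inhibitors do this with a stretch that resembles a PKA substrate, in which arginine-arginine-asparagine-alanine takes the place of a phosphorylation site. The coding sequence around it is shown for the 3 inhibitors because it is the feature that makes them one family. The 12 capital letters encode those 4 residues, and 5 codons are given on each side, 5′ to 3′ on the plus strand of GRCm38, from the GENCODE M21 transcripts Pkia-201, Pkib-202 and Pkig-203:
Pkia: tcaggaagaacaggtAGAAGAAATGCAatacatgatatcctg
Pkib: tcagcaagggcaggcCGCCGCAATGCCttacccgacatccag
Pkig: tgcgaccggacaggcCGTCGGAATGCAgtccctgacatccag
Each stretch lies in 1 coding exon: Pkia at chr3:7437404-7437445 (residues 19 to 22 of 76), Pkib at chr10:57728158-57728199 (residues 26 to 29 of 78) and Pkig at chr2:163721190-163721231 (residues 19 to 22 of 76). Pkib and Pkig were the closest pair, with 30 of 42 bases and 10 of 14 residues identical. Pkia shared 28 bases and 9 residues with Pkib, and 26 bases and 9 residues with Pkig. The core residues are the same in all 3, but their codons are not: 7 of 12 core bases matched between Pkia and Pkib, 8 of 12 between Pkia and Pkig, and 9 of 12 between Pkib and Pkig. The genes themselves lie apart. Prkaca is on chromosome 8 (83972993 to 83996443, plus strand), Prkacb (146729574 to 146812990, minus strand) and Pkia (7366669 to 7445366, plus strand) are on chromosome 3, Pkib is on chromosome 10 (57631981 to 57741112, plus strand) and Pkig is on chromosome 2 (163658386 to 163726158, plus strand). Pkig overlaps the antisense gene Gm16316 by 7276 bases, measured over whole gene spans, introns included. Prkacb and Pkia overlap processed pseudogenes on the other strand, Gm19104 (679 bases) and Gm37918 (120 bases), which are not in the count table. No source used here says whether the counting used the strand, and the part of these overlaps in the levels was not tested.

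The totals per library ranged from 20.8 to 73.3 M counts. Prkacb had 4113 to 50548 counts in a library and Prkaca 5563 to 24610, whereas Pkib had 41 to 1128, and 41 to 131 in striatum. Levels below are CPM, the counts of a gene divided by the library total in units of M counts, scaled by the trimmed mean of M-values over all 186 libraries. Akap11, which encodes the anchoring protein that was targeted, checks the genotype labels: in KO its mean was 5.08% to 7.98% of the WT mean over the 12 sets of region and age. In HET its fitted level was 50.2% to 61.8% of that in WT. The labelled regions held their markers, with the striatal, thalamic, dopamine neuron and cortical or hippocampal scores above every other library in 30 of 30, 28 of 31, 31 of 32 and 92 of 93 libraries. Some 4-week libraries stood apart by those scores: striatal KO 51, 161 and 163 and WT 92 (cortical markers), thalamic WT 913, 914 and 23 (low thalamic markers) and nigral WT 42, KO 91 and KO 44 (low dopamine neuron markers). Hippocampal libraries varied widely in thalamic score, from 3.09 (12-week HET 2) to 6.79 (4-week WT 23), against at least 7.34 in thalamus. Their choroid plexus score ran from 1.04 to 7.33. No hippocampal library was set apart for this, and its part in the hippocampal values was not tested. Nigral WT 92 stood apart by its Akap11 level, 44.8 CPM against a median of 221 CPM in the 6 WT libraries, and also had a low dopamine neuron score (mean log2(CPM + 1) of 3.80) and the highest oligodendrocyte score of all libraries (12.1). Of the 4-week libraries, 16 had at most 5.55% whole numbers among their deposited counts, against at least 17.3% elsewhere. These 16 include striatal WT 92 and nigral WT 92 named above, and their levels of these genes differed. Relative to the other libraries of their own groups, the median log2 difference was 0.37 for Prkaca (higher in 16 of 16), 0.38 for Prkacb (higher in 15 of 16), 0.32 for Pkia, 0.20 for Pkig and -0.36 for Pkib. The median over all genes was -0.05. The part of this library subset in the results below was examined by leaving those libraries out, and its cause was not tested.

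In WT brain, all 5 genes varied between regions, and the catalytic subunits did so in different orders. Prkaca, which encodes the alpha catalytic subunit, was highest in substantia nigra and lowest in striatum. At 12 weeks it measured 333, 295, 331, 325 and 333 CPM in the 5 nigral libraries and 195, 192, 189, 192 and 186 CPM in the 5 striatal ones. Every nigral library was thus above every striatal library. At 4 weeks the nigral values ran from 323 through a median of 349 to 628 CPM, the last in WT 92, and striatum measured 214, 217, 190, 249 and 262 CPM. The means, 409 ± 119 (SD, n = 6) and 226 ± 28.9 CPM (SD, n = 5), differed 1.80 times. Between these ends, thalamus (299.7 ± 12.6 CPM at 4 weeks, 259.5 ± 12.2 at 12 weeks), PFC, SSC and HP formed a series in which neighbours overlapped at both ages, except that at 12 weeks PFC (240.5 ± 7.69 CPM) lay above HP (214 ± 3.16 CPM) without overlap.

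Prkacb, which encodes the beta catalytic subunit, had another order, in which striatum, lowest for Prkaca, came first. In striatum the 12-week libraries measured 667, 754, 610.1, 662 and 629.8 CPM. PFC (631 ± 36.2 CPM, SD, n = 5) and SSC (593 ± 48.3 CPM, n = 5) overlapped with striatum and with each other. Substantia nigra stood below all 3, at 465 ± 22.2 CPM, and hippocampus and thalamus were lowest, at 251 ± 36.5 and 229 ± 31.9 CPM, overlapping with each other. The order was the same at 4 weeks apart from the last pair, with 754 ± 123 CPM in striatum and 261 ± 21.4 CPM in hippocampus, a ratio of 2.89. Substantia nigra then overlapped with thalamus, but through nigral WT 92 alone (286 CPM). The next nigral value was 378 CPM and the highest thalamic one 374 CPM.

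Among the inhibitors, Pkia and Pkig shared the low end and Pkib did not. Pkia was lowest in thalamus, where the 12-week libraries measured 58.9, 44.2, 53.6, 63.8 and 58.2 CPM, below every library of the other regions at that age. It was highest in PFC (168 ± 25.9 CPM) and striatum (165 ± 32.5 CPM), which overlapped, and at 12 weeks neighbours overlapped down the order through HP and SN to SSC. Pkig was also highest in PFC (57.9, 56.9, 51.3, 45.8 and 54.8 CPM at 12 weeks) and striatum (48.8, 49.7, 53.2, 51.7 and 47.8 CPM). It was lowest in thalamus (15.9, 16.9, 12.9, 16.3 and 12.3 CPM). Neighbours overlapped from PFC through striatum and HP (44.8 ± 3.92 CPM) to SSC (42.2 ± 2.40 CPM). SN, at 20.4 ± 1.52 CPM, lay below all the libraries of those 4 regions and above all thalamic ones. At 4 weeks striatum came first for both genes (163 ± 15.3 CPM for Pkia and 57.5 ± 7.68 CPM for Pkig) and overlapped with PFC, and thalamus was again lowest (68.8 ± 22.9 and 14.9 ± 5.35 CPM) but overlapped with SN.

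Pkib differed from them at both ends of the order, being highest in thalamus and lowest in striatum. The 12-week thalamic libraries measured 15.8, 18.8, 19.7, 19.4 and 12.8 CPM, above every library of every other region. Striatum was lowest, at 1.76, 1.94, 2.56, 2.83 and 2.12 CPM, below every other region, and the 2 means (17.3 ± 2.96 and 2.24 ± 0.45 CPM) differed 7.72 times. At 4 weeks striatum was again below every other region (1.61 ± 0.27 CPM), but thalamus (7.41 ± 1.11 CPM) overlapped with SSC (6.48 ± 1.30 CPM), PFC (6.32 ± 1.05 CPM) and HP (6.01 ± 0.76 CPM), in which neighbours also overlapped.

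**Figure D1:**
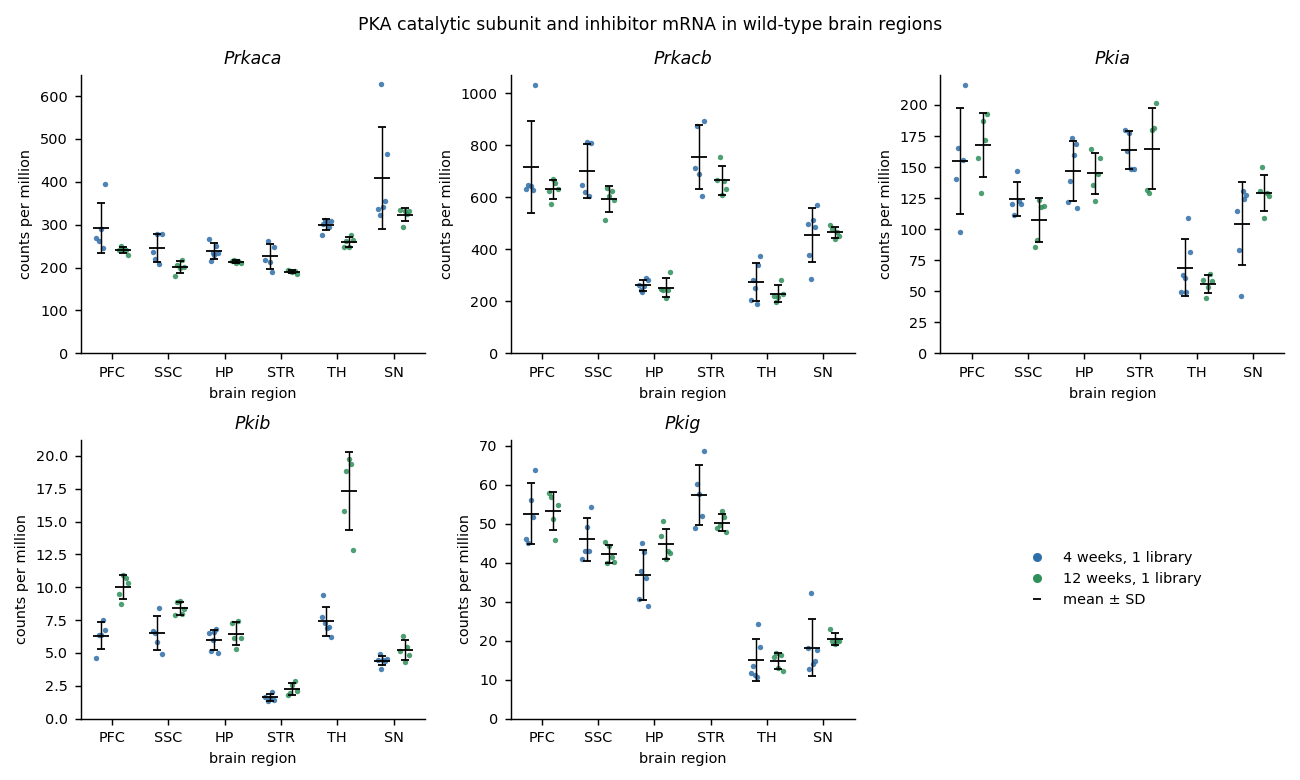
Levels in WT libraries, in CPM (y axes, each starting at 0), by region (x axes) at 4 weeks (blue) and 12 weeks (green); points are libraries and bars are mean ± SD. Prkaca is highest in SN, Prkacb in STR, PFC and SSC, and Pkib in TH, where it was 17.3 CPM at 12 weeks against 2.24 CPM in STR.

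In the edgeR quasi-likelihood test with Benjamini-Hochberg adjustment over all genes, used for every adjusted p below unless another tool is named, all 5 genes differed over the 6 regions at both ages (10 of 10 tests). The largest adjusted p was 3.87e-05, for Pkia at 4 weeks. Most genes did so: 85.6% of the genes tested were called (adjusted p under 0.05) at 4 weeks and 93.4% at 12 weeks, so the calls as such do not set these 5 genes apart. The test of WT striatum against the average of the 5 remaining regions was called 10 of 10 times as well, against 52.9% of all genes at 4 weeks and 67.3% at 12 weeks. Prkacb was higher in striatum by 0.81 ± 0.13 (log2, SE) at 4 weeks and 0.75 at 12 weeks, Pkig by 0.97 ± 0.15 and 0.69, and Pkia by 0.53 ± 0.17 and 0.55. Pkib was lower, with log2 differences of -1.88 ± 0.13 and -1.94, and so was Prkaca, with -0.33 ± 0.11 and -0.34. Without striatal WT 913 the 4-week value of Prkaca was -0.29, with an adjusted p of 0.0521.

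The 2 catalytic subunit transcripts stood in different proportion in different regions. The log2 ratio of Prkaca to Prkacb, each per kilobase of its longest annotated transcript, had a 12-week WT median of -0.84 in striatum, -0.62 in SSC and -0.50 in PFC. It was 0.42 in SN, 0.76 in HP and 1.12 in thalamus. No WT library of striatum, SSC or PFC was above 0 at either age, and none of HP, TH or SN was below 0. The 4-week medians were close to these (-0.78, -0.60, -0.37, 0.57, 0.77 and 1.14 in the same order), and nigral WT 92 had the highest value of any WT library, 2.07. Per length of coding transcripts instead, all values fell by the same amount and 1 nigral library changed sign, to -0.03. The summed inhibitors were less abundant than the summed catalytic subunits in every WT library, with either choice of length. Their log2 ratio per kilobase of longest transcript had 12-week medians from -1.42 in HP and -1.78 in striatum to -2.52 in SN and -2.78 in thalamus. Its size depends on the lengths: with mean coding transcript lengths these medians were -0.32, -0.78, -1.53 and -1.70. Pkia made up most of the inhibitor level per kilobase, with a 12-week WT median of 65.1% in thalamus, 66.2% in SSC, 71.9% in striatum and 81.3% in SN. That share depends on the lengths: with mean coding transcript lengths it was 55.3%, 54.8%, 60.8% and 73.0%. Per kilobase of longest transcript in 12-week striatum, the levels were 153 ± 12.7 CPM for Prkacb, 83.8 ± 1.54 for Prkaca, 45.6 ± 8.98 for Pkia, 17.9 ± 0.78 for Pkig and 0.42 ± 0.08 for Pkib (SD, n = 5). With mean coding transcript lengths they were 228, 104, 108, 70.6 and 1.27 CPM in the same order. The order of Prkaca and Pkia thus depends on the length chosen. No test was made of these ratios, which combine chosen genes.

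**Figure D2:**
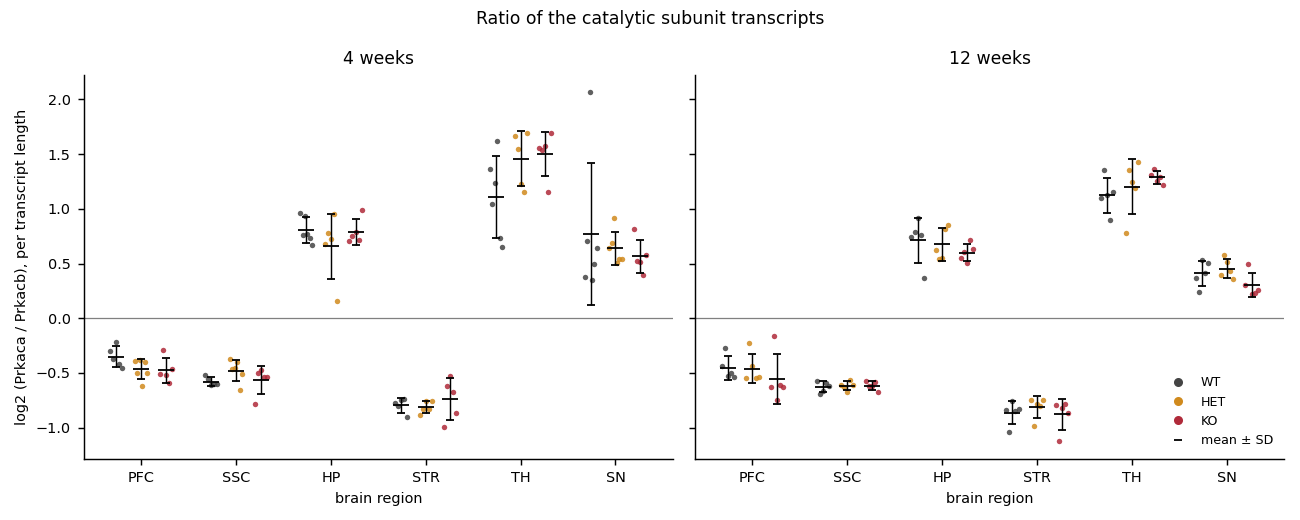
Log2 ratio of Prkaca to Prkacb per kilobase of longest transcript (y axis) by region (x axis) at 4 weeks (left) and 12 weeks (right), for WT, HET and KO; points are libraries, bars are mean ± SD and the grey line marks equal levels. PFC, SSC and STR lie below 0 in all 3 genotypes, and HP, TH and SN above 0, with nigral WT 92 at 2.07.

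Other genes followed these regional patterns closely. Over the 12 WT group means, among 15223 genes with a mean of at least 1 CPM, the highest Pearson correlations of log2(CPM + 1) were with Tbcd (0.96), Pgd (0.96) and Trappc9 (0.95) for Prkaca, and with Rasgef1c (0.97), Gucy1a3 (0.96) and Phlda1 (0.96) for Prkacb. For Pkia they were with Gpr85 (0.97), Ntrk3 (0.97) and Eda (0.96), for Pkib with Taf6 (0.94), Colec12 (0.94) and Dnhd1 (0.93), and for Pkig with BC030343, Gm42517 and Trank1 (0.98 each). Among the 5 genes themselves, the highest was 0.85 between Pkia and Pkig and the lowest -0.65 between Prkaca and Pkig. Prkaca and Prkacb had -0.14. These are descriptions over 12 means that share 6 regions and 2 ages.

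Between 4 and 12 weeks in WT, Pkib rose and Prkaca fell in some regions. Prkacb, Pkia and Pkig were called in no region. In thalamus the 4-week Pkib values ran from 6.19 through a median of 7.11 to 9.42 CPM, below all 5 of the 12-week values given above. The log2 difference, 12 minus 4 weeks, was 1.23 ± 0.13 (SE, adjusted p = 0.000472). In PFC, Pkib measured 6.35, 4.64, 7.53, 6.71 and 6.40 CPM at 4 weeks and 9.46, 8.75, 10.9, 10.7 and 10.3 CPM at 12 weeks, also without overlap, a rise of 0.66 ± 0.12 (adjusted p = 0.00511). In SSC it rose by 0.37 ± 0.12 (adjusted p = 0.0430). The Pkib differences that did not pass were 0.51 ± 0.20 in striatum (adjusted p = 0.118), 0.25 in SN and 0.12 in HP. Prkaca fell by 0.21 in thalamus (SE 0.05, adjusted p = 0.0176) and by 0.28 in SSC (SE 0.09, adjusted p = 0.0450). Its differences in the other regions had the same sign, from -0.33 to -0.15, and did not pass. The -0.33 was that of SN, and it was -0.17 without WT 92 and -0.06 without the library subset. That makes 5 calls in 30 tests, against 14.3% of all genes called in thalamus, 22.8% in SSC, 13.8% in PFC, 13.6% in striatum, 12.9% in HP and 4.24% in SN.

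The library subset touches these age differences, since it lies in the 4-week groups alone. Without it, Pkib in PFC was 0.70 (adjusted p = 0.00503), but in SSC Pkib was 0.22 (adjusted p = 0.17) and Prkaca -0.14 (adjusted p = 0.149), neither past the threshold. It holds no WT thalamic library, so the thalamic differences are the same without it. Leaving out single libraries kept both thalamic calls in 11 of 11 fits and the PFC call in 10 of 10, while the SSC calls were kept in 1 of 10 fits for Pkib and 2 of 10 for Prkaca. Without the nigral libraries that stood apart, Pkig in SN was higher at 12 weeks by 0.35 (adjusted p = 0.0268), against 0.18 with them. Without nigral WT 92 alone, a library of the subset, the Pkig difference was 0.41 (adjusted p = 0.0171). Leaving out 1 library also gave calls for Pkig in HP (0.36, adjusted p = 0.0495, without 4-week WT 92). Prkaca in striatum passed without 4-week WT 913 (-0.26, adjusted p = 0.0378). The ages are different samples, and age and any difference in library preparation between the ages cannot be told apart.

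The mutants gave a single call among these genes. In KO against WT, 1 of 60 tests of gene, region and age passed, that of Pkig in 4-week striatum, and 4 of 60 had an unadjusted p under 0.05. In HET against WT, 0 of 60 passed with edgeR and 4 of 60 had an unadjusted p under 0.05. DESeq2 called 1 of the 60, in 4-week thalamus, where it called 387 of 15654 genes. The share of all genes called in KO was 3.35% in 4-week striatum and 4.42% in 12-week striatum. Elsewhere at 4 weeks it was 0.0125% in PFC, 0.0564% in SSC, 0.00609% in HP, 0.0128% in TH and 0.00617% in SN, and at 12 weeks 0.0123% in PFC, 0.0252% in SSC, 0.00608% in HP, 0.0064% in TH and 0.0364% in SN. Outside striatum few genes of any kind were thus called. The log2 fold changes, KO against WT, ranged from -0.26 to 0.12 for Prkaca, from -0.33 to 0.14 for Prkacb, from -0.41 to 0.14 for Pkia, from -0.46 to 0.06 for Pkig and from -0.21 to 0.70 for Pkib. Over the 12 comparisons the medians were 0.02, 0.01, -0.01, -0.05 and 0.20 in that order, and 8, 6, 6, 3 and 8 of them were above 0. The medians over all genes lay between -0.02 and 0.01. The values were wider apart at 4 weeks, when the SE of a log2 fold change in KO had a median of 0.14, than at 12 weeks, when it was 0.08 and all 30 fold changes lay between -0.21 and 0.26.

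**Figure D3:**
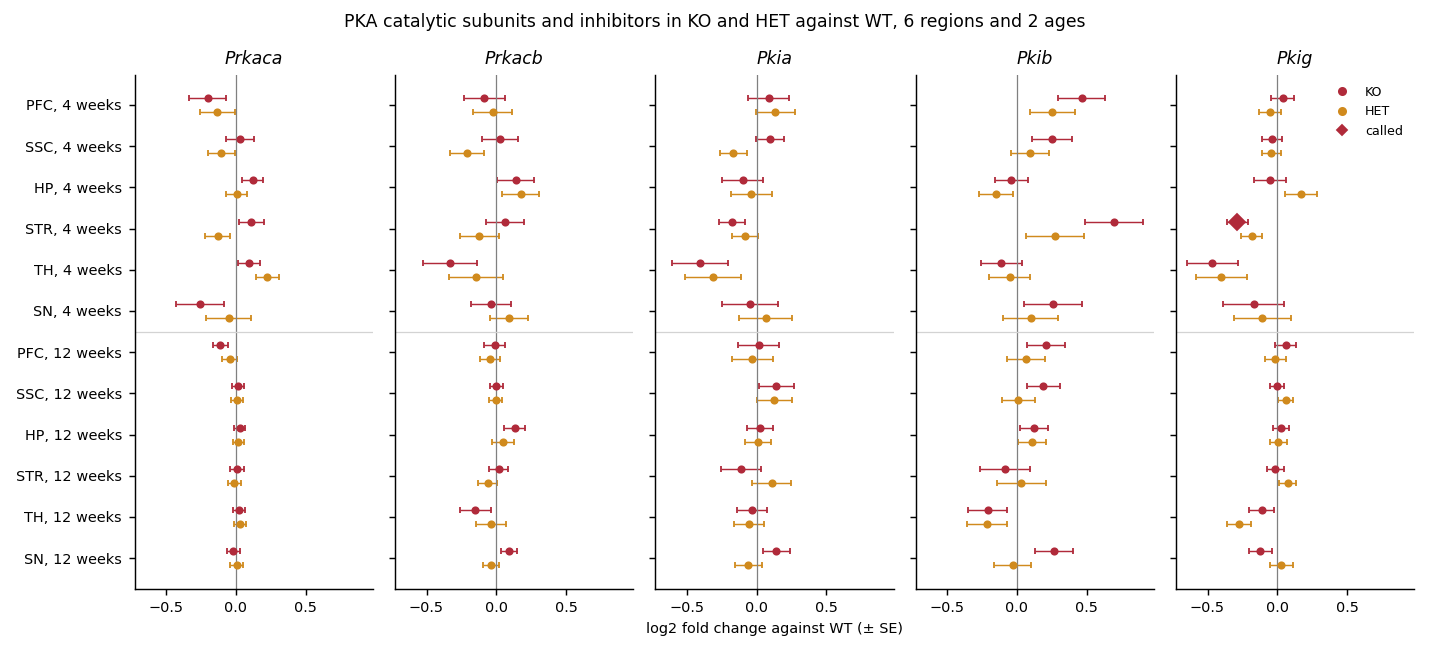
Log2 fold change against WT (x axes, with SE bars) of each gene in KO (red) and HET (orange) for 6 regions at 4 weeks (upper rows) and 12 weeks (lower rows). The diamond marks the 1 called value, Pkig in KO striatum at 4 weeks (-0.29), and Pkib in the same comparison has the largest value (0.70).

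In 4-week striatum, the inhibitor Pkig was lower in KO. The KO libraries measured 46.0, 45.5, 47.4, 48.7 and 47.8 CPM and the WT libraries 57.7, 48.8, 52.0, 68.6 and 60.3 CPM. The groups did not overlap, but the highest KO and the lowest WT library were 48.7 and 48.8 CPM, and the WT libraries were spread far more widely. The HET libraries, at 46.3, 50.5, 48.4, 53.8 and 52.8 CPM, overlapped with both. The fold change, KO against WT, was -0.29 ± 0.07 (log2, SE), from means of 57.5 ± 7.68 to 47.1 ± 1.33 CPM (SD, n = 5 each), with an adjusted p of 0.0465. In HET it was -0.18 ± 0.07, with an unadjusted p of 0.0247 and an adjusted p of 1.00. The call in KO is close to the threshold and depends on the setting. The adjusted p was 0.0509 with other size factors, 0.0545 with no filter on low counts and 0.141 with KO and WT alone in the fit. It was 0.201 without the libraries that stood apart by cortical markers, and 3 of 15 fits that each left out 1 library kept the call (adjusted p from 0.0206 to 0.112). The 2 highest WT libraries, 914 and 92, belong to the library subset. Without that subset, which also takes out KO 12, the fold change was -0.16, with an adjusted p of 0.154. DESeq2 kept the call (adjusted p = 0.0149).

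Pkib had the opposite sign in the same tissue and did not pass the test. It measured 1.45, 3.63, 2.51, 2.90 and 2.50 CPM in KO and 1.54, 1.66, 2.04, 1.45 and 1.34 CPM in WT. Of the KO libraries 4 were above every WT library and KO 12 lay within the WT range. The HET libraries, at 1.81, 2.24, 1.90, 1.70 and 2.03 CPM, overlapped with both, and the fold change in HET was 0.27 ± 0.21 (SE, unadjusted p = 0.211). The fold change in KO was 0.70 ± 0.21 (SE), from means of 1.61 ± 0.27 to 2.60 ± 0.79 CPM, with an unadjusted p of 0.00412 and an adjusted p of 0.0812. Under DESeq2 the adjusted p was 0.0213, and without the library subset it was 0.0404.

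Cortical and hippocampal excitatory neuron markers also varied between these libraries. All 10 genes of that marker list had a higher fitted level in KO than in WT, with 0 of 10 called. Their summed level ran from 52.3 through a median of 805 to 1643 CPM in KO, from 51.6 through 63.0 to 891 CPM in WT, and from 55.2 through 59.8 to 176 CPM in HET, and none of the 10 was at 0 throughout a group. The 10 striatal projection neuron markers all had a lower fitted level in KO, with 0 of 10 called, and their summed level ran from 7702 through a median of 11415 to 23705 CPM in KO and from 12778 through 16433 to 23043 CPM in WT. Among 7 microglial markers 2 were called lower in KO and none had a higher fitted level (summed medians 311 CPM in KO and 367 CPM in WT), and 1 of 7 astrocyte markers was called lower (827 and 933 CPM). The part of the striatal, microglial and astrocyte markers in the Pkig and Pkib values was not tested. The 3 KO libraries with the high cortical scores, 161, 163 and 51, had the 3 highest Pkib levels. In 4-week WT, Pkib was at 6.32 CPM in PFC and at 1.61 CPM in striatum. WT 92 also had a high cortical score and had the lowest Pkib level. Of the 4 libraries with high scores 3 were KO and 1 was WT, so score and genotype are partly confounded. With the cortical score as a covariate the Pkib fold change was 0.50 (adjusted p = 0.271), and without the 4 libraries it was 0.23 (adjusted p = 0.677), from 2 KO and 4 WT libraries. The Pkig value was -0.31 with that covariate (adjusted p = 0.0470) and -0.29 without the 4 libraries.

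**Figure D4:**
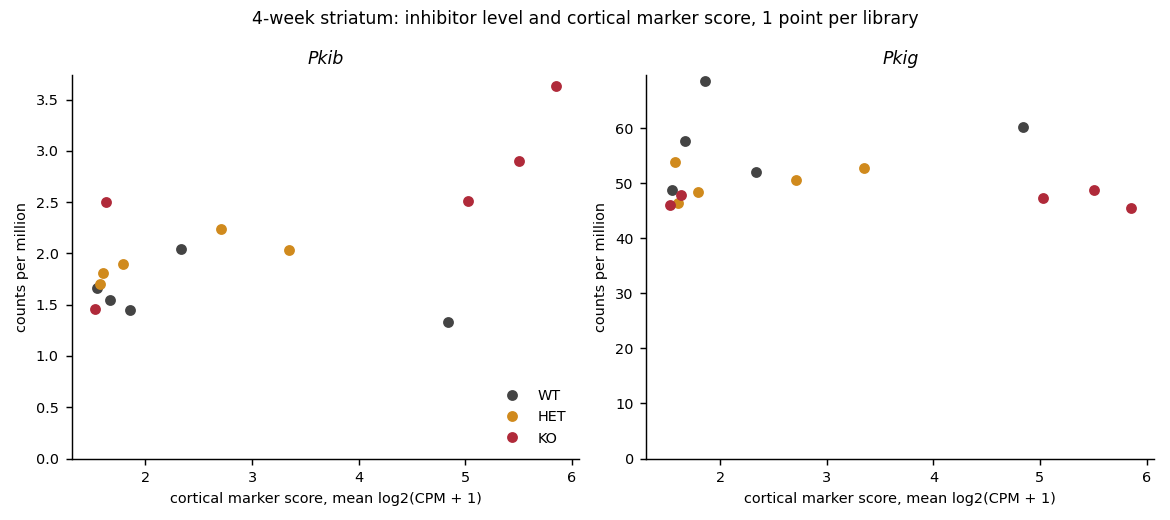
Pkib (left) and Pkig (right) level in CPM (y axes, from 0) against the mean log2(CPM + 1) of 10 cortical and hippocampal excitatory neuron markers (x axes) in the 15 libraries of 4-week striatum, 1 point per library, by genotype. Scores of the 4 libraries on the right run from 4.84 to 5.86, those of the other 11 from 1.52 to 3.35, and Pkib is highest, 3.63 CPM, at the highest score.

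The catalytic subunits and Pkia did not pass in striatum at 4 weeks. Prkaca was 284, 255, 222, 228 and 231 CPM in KO, within and above the WT range, with a fold change of 0.11 ± 0.09. Only KO 12, at 284 CPM, lay above that range, and the highest WT values were those of WT 92 and 914. All of these libraries belong to the library subset. Prkacb was 1081, 701, 677, 667 and 804 CPM in KO, with a fold change of 0.06 ± 0.14. Its highest value, in KO 12, was that of a library of the subset, and without that library the fold change was -0.08. Pkia was 177, 141, 124, 147 and 131 CPM in KO and 178, 180, 148, 148 and 163 CPM in WT, with a fold change of -0.18 ± 0.09 (adjusted p = 0.341). Without the library subset it was -0.31, with an adjusted p of 0.0497.

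At 12 weeks the striatal values of all 5 genes overlapped between genotypes. Pkig was 50.7, 45.3, 49.3, 57.3 and 48.5 CPM in KO, around the WT values given above, and the fold change was -0.01 ± 0.06. Pkib was 1.70, 2.15, 1.94, 2.19 and 2.65 CPM in KO, with a fold change of -0.09 ± 0.18. Prkaca (0.01 ± 0.05), Prkacb (0.02 ± 0.07) and Pkia (-0.11 ± 0.14) were close to 0 as well, relative to their errors. In HET striatum at 12 weeks the fold changes lay between -0.06 for Prkacb and 0.11 for Pkia. The ratio of Prkaca to Prkacb in striatum had medians at 4 weeks of -0.78 (WT), -0.83 (HET) and -0.67 (KO), and at 12 weeks of -0.84, -0.78 and -0.82, on the log2 scale per kilobase.

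**Figure D5:**
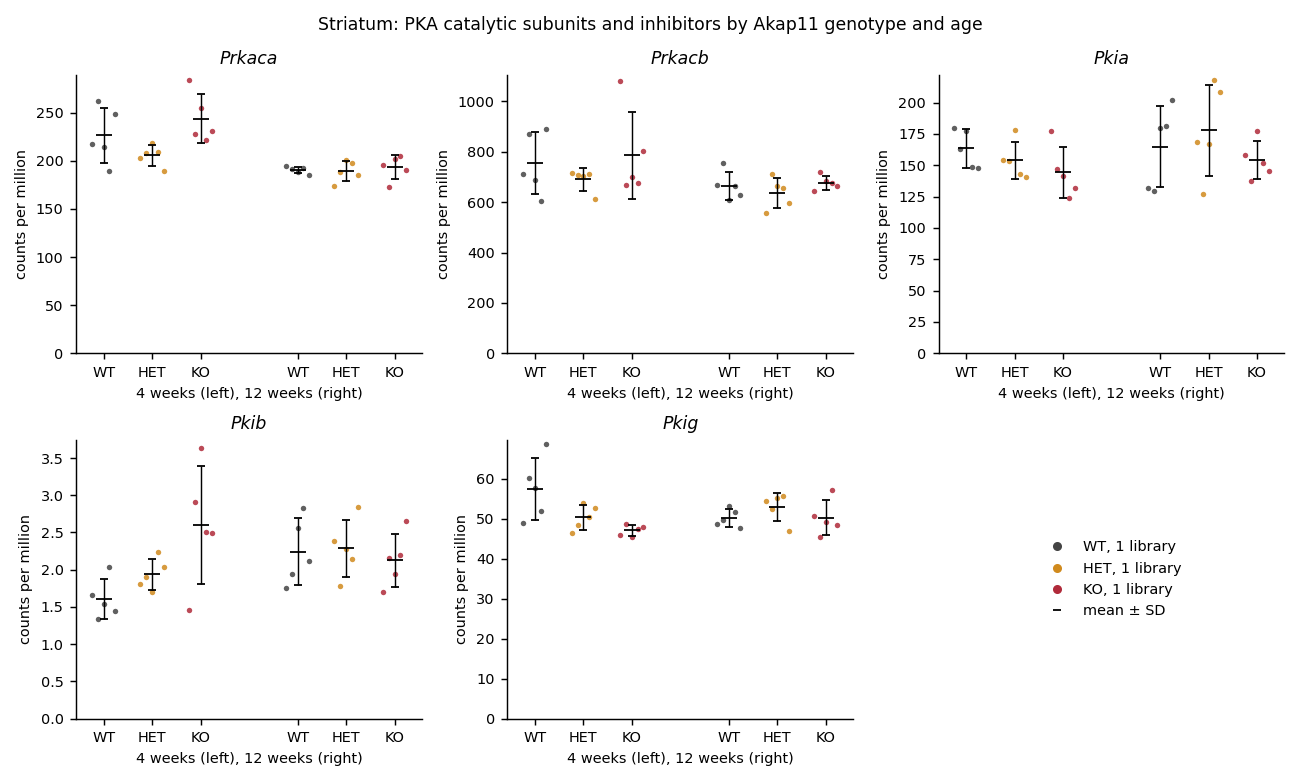
Levels in striatum in CPM (y axes, from 0) by genotype (x axes) at 4 weeks (left of each panel) and 12 weeks (right); points are libraries and bars are mean ± SD, n = 5 each. At 4 weeks Pkig was 47.1 CPM in KO and 57.5 CPM in WT, without overlap, and Pkib 2.60 and 1.61 CPM, with overlap. At 12 weeks the genotypes overlap for all 5 genes.

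Whether the KO effect differed between the ages was tested directly. No gene of the 5 passed in any region, and the test called 0% of all genes in each of the 6 regions, with 1090 genes at an unadjusted p under 0.05 in striatum and 468 to 1261 elsewhere. In striatum the KO effect at 12 weeks minus that at 4 weeks was 0.26 ± 0.10 for Pkig (unadjusted p = 0.0109, adjusted p = 0.606) and -0.79 ± 0.27 for Pkib (unadjusted p = 0.00662, adjusted p = 0.561). The fall of Pkig at 4 weeks is therefore not shown to differ from the value at 12 weeks. The KO effect in striatum against the average of the remaining 5 was also called for none of the 5 genes, against 3.52% of all genes at 4 weeks and 3.11% at 12 weeks. For Pkib at 4 weeks that difference was 0.54 ± 0.20 (unadjusted p = 0.00784, adjusted p = 0.128), and for Pkig it was -0.14 ± 0.16 (adjusted p = 0.808). Pkib passed this test when striatal KO 12 was left out.

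Outside striatum, 2 KO values had an unadjusted p under 0.05. Pkib in 4-week PFC was 9.09, 9.08, 7.38, 8.53 and 9.58 CPM in KO against the 4-week WT values given above, of which the highest was 7.53 CPM. Of the KO libraries 4 were above every WT library, and the fold change was 0.46 ± 0.17 (adjusted p = 0.250). Pkig in 4-week thalamus was 10.4, 10.2, 11.2, 11.4 and 11.4 CPM in KO, and ran from 10.7 through a median of 12.6 to 24.2 CPM in WT. Its fold change was -0.46 ± 0.18 (adjusted p = 0.301). The highest WT values, 24.2 and 18.4 CPM, were those of WT 913 and 914, which had low thalamic markers, and the summed level of the 8 thalamic markers ran from 2624 to 6294 CPM in WT, 4979 to 6658 CPM in KO and 5884 to 8156 CPM in HET, with none of the 8 at 0. Without the 3 WT libraries of low thalamic markers the fold change was -0.11 (adjusted p = 0.845).

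The HET comparisons gave no call among the 5 genes, and no gene other than Akap11 was called in any of them with edgeR. The share of all genes called was 0% in HP and 0% in SN at 4 weeks, where 1120 and 1443 genes had an unadjusted p under 0.05 with edgeR. Akap11 itself thus did not pass in these sets (adjusted p = 0.273 in HP and 0.548 in SN), and was called in 10 of 12 sets. The absence of other calls in HET is to be read with that limit. It was 0.00626% in PFC, 0.00627% in SSC, 0.00648% in striatum and 0.00639% in thalamus at 4 weeks. At 12 weeks it was 0.00613% in PFC, 0.00629% in SSC, 0.00608% in HP, 0.0064% in striatum, 0.0064% in thalamus and 0.00606% in SN. Beside Pkig in striatum, 3 HET values had an unadjusted p under 0.05, all in thalamus. Pkig measured 11.9, 12.2, 11.0, 10.6 and 12.0 CPM in HET at 4 weeks, with a fold change of -0.40 ± 0.18 (adjusted p = 0.294), which became -0.04 without the 3 WT libraries named above. At 12 weeks its fold change was -0.27 ± 0.09 (adjusted p = 0.390), from means of 14.9 ± 2.09 to 12.3 ± 0.80 CPM. Prkaca in 4-week thalamus was 405, 322, 315, 426 and 309 CPM in HET and ran from 276 to 311 CPM in WT, with a fold change of 0.22 ± 0.08 (adjusted p = 0.228, and 0.0486 with DESeq2). The 2 highest values were those of HET 11 and 93, both in the library subset, and without them the fold change was 0.06.

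The other genes of the cAMP pathway were read from a list of 50 regulatory subunits, cyclases, phosphodiesterases, anchoring proteins and targets. In KO, 3 of 48 tested rose and 2 fell in 4-week striatum, where 3.35% of all genes were called. In 12-week striatum 2 of 49 rose and 2 fell, against 4.42% of all genes, and in 12-week SSC 1 of 47 fell, against 0.0252%. In the 9 other KO comparisons, and in all 12 of HET, none passed with edgeR. Over the list's groups in 4-week striatum, the median log2 fold change ran from -0.23 for targets and phosphatase regulators to 0.15 for the 4 regulatory subunits, none of which was called, while the median over all genes was close to 0. Adcy1, a calcium-stimulated adenylyl cyclase, rose by 0.80 ± 0.14 at 4 weeks (551 ± 70.1 CPM in KO and 317 ± 77.5 CPM in WT, adjusted p = 0.00541) and by 0.63 ± 0.10 at 12 weeks (adjusted p = 0.00164). Akap3, an anchoring protein best known from sperm, rose by 1.47 and 1.74 at the 2 ages, to means of 0.45 and 0.50 CPM. Crem, a cAMP-responsive transcription factor, rose by 0.48 ± 0.09 at 4 weeks (adjusted p = 0.00637). The falls at 4 weeks were in Akap5, which anchors PKA at the postsynaptic membrane (fell by 0.55, adjusted p = 0.0182), and Ppp1r1a, a phosphatase inhibitor that PKA activates (fell by 0.56, adjusted p = 0.00113). At 12 weeks they were in the striatal phosphodiesterases Pde10a (fell by 0.43, adjusted p = 0.0374) and Pde2a (fell by 0.29, adjusted p = 0.0110). The call in SSC was Prkar1a, which encodes a regulatory subunit (510 ± 5.88 CPM in KO and 604 ± 28.5 CPM in WT, fell by 0.25, adjusted p = 0.0398). The cortical marker levels given above belong to the same 4-week striatal libraries, and their part in the values of this list was not tested.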

How the data were processed

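The deposited table holds expected counts, that is, estimated counts per gene symbol that need not be whole, for 186 libraries. Per the submitters' processing notes, Salmon and the mouse build mm10 were used, with versions, annotation and strand setting not given in the sources used here. Per the labels' protocols, 200 ng of RNA per sample entered the TruSeq Stranded mRNA kit. Of the values above 0, 77.9% were not whole, and 2991 genes were at 0 throughout.

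Expected counts were rounded. Genotypes were compared with edgeR 4.0.16 in R 4.3.3 (TMM, filterByExpr, glmQLFit, glmQLFTest), with 1 fit per region and age over the 3 genotypes. The tests between ages used 1 fit per region and those between regions 1 fit per age. P-values were adjusted by Benjamini-Hochberg over all genes of a comparison and called at 0.05. The SE is the log2 fold change divided by the square root of F. The script was tested on simulated data.

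Symbols were placed on GRCm38 by the GENCODE M21 annotation (95.5% matched), and sequences were read from its transcripts. CPM per kilobase used the longest transcript. Named are the 5 genes, Akap11, the 3 genes most like each of the 5, and pathway genes called in KO. A comparison was described singly in striatum, or at an unadjusted p under 0.05. The genes, lists and set-apart libraries were chosen with earlier results of these data known. Alternatives were DESeq2 1.42.0, relative log expression scaling, keeping genes of low count, fewer genotypes, a replicate block (limma 3.58.1 between regions), covariates and leaving libraries out. The cortical score as a covariate and leaving out the library subset were chosen after the data were seen.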

Additional observations from a re-analysis of the deposited data

Results flagged for a closer look

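In 9 of 180 sets of 1 gene in 1 group of 5 or 6 libraries, 1 library lay far from the others (Dixon's test at 95%, which chance alone gives in about 1 of 20 sets). Among the catalytic subunits these were Prkacb in 4-week prefrontal cortex WT 914 (1029 CPM, high) and HET 941 (952 CPM, high), in 4-week striatum HET 931 (612 CPM, low) and in 4-week thalamus KO 163 (281 CPM, high), and Prkaca in 12-week substantia nigra WT 2 (295 CPM, low). Among the inhibitors they were Pkia in prefrontal cortex, at 4 weeks in HET 941 (208 CPM, high) and at 12 weeks in HET 2 (126 CPM, low), and Pkig in substantia nigra, at 4 weeks in WT 92 (32.3 CPM, high) and at 12 weeks in WT 1 (23.0 CPM, high). Prefrontal WT 914 and HET 941 and nigral WT 92 belong to the library subset with few whole-number counts.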

How the results depend on the processing

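The 1 call in KO against WT, out of 60, became 0 with relative log expression size factors, with no filter on low counts, with only the 2 genotypes compared, with the library subset as a covariate and without the libraries that stood apart. It became 2 with DESeq2, for Pkig and Pkib. Without the library subset it was also 2, but for Pkib and Pkia, and the call of Pkig was lost. The count ran from 0 to 2 when single libraries were left out. These calls lie in 4-week striatum, where the main fit called 516 of 15425 genes in KO. DESeq2 called 978 of 15425 there, and the fit without the library subset 1162 of 15757. The settings that gave 0 called 499 of 15425, 434 of 21904, 174 of 15112, 646 of 15425 and 417 of 15750, in the order named. The calls in HET against WT went from 0 to 1 with DESeq2 and stayed at 0 in the leave-one-out fits. The DESeq2 call was in 4-week thalamus, where that tool called 387 of 15654 genes in HET and edgeR called 1. Leaving out single libraries gave 0 throughout for the age difference, 0 to 1 for the striatal KO effect (20 striatal libraries tried), 10 throughout for the WT regions, 9 to 10 for WT striatum against the others and 3 to 6 for WT 12 against 4 weeks. With the cortical score as a covariate the count of KO calls was 1.

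Signs turned in values that were not called. Prkacb in 4-week HET striatum was 0.079 with the library subset as a covariate and 0.044 without the subset, against -0.12. Without the subset, 12 against 4 weeks in WT gave 0.0040 for Prkacb in PFC, 0.00062 for Prkacb in striatum, 0.00057 for Pkig in SSC and -0.021 for Pkia in striatum. Without the libraries that stood apart it gave 0.33 for Pkig in thalamus and -0.15 for Prkacb in SN. When single libraries were left out, KO against WT in striatum ran from -0.081 to 0.13 for Prkacb at 4 weeks, and at 12 weeks from -0.014 to 0.039 for Prkaca, -0.014 to 0.062 for Prkacb, -0.18 to 0.0075 for Pkib and -0.064 to 0.015 for Pkig. HET against WT in 12-week striatum ran from -0.033 to 0.010 for Prkaca and from -0.060 to 0.12 for Pkib. In WT, 12 against 4 weeks ran in PFC from -0.22 to 0.0040 for Prkacb, -0.014 to 0.28 for Pkia and -0.039 to 0.12 for Pkig, and in HP from -0.13 to 0.0029 for Prkacb and -0.065 to 0.046 for Pkia. It ran from -0.039 to 0.12 for Pkia in striatum, -0.11 to 0.17 for Pkig in thalamus and -0.068 to 0.12 for Prkacb in SN. The cause was not tested. Of the values recomputed under settings other than leaving out single libraries, 360 stayed the same, while 8 turned sign. Another 8 passed the threshold where the main fit did not, 9 no longer passed it, and 8 counts of calls moved. Single values among the 360 kept their direction and their side of the threshold. The 360 also include counts of calls that stayed equal or close to the main count.

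Samples of different groups share numbers in the labels, at 12 weeks across genotypes and at both ages across regions. Correlations of same-numbered deviations ran from -0.25 to 0.68 between genotypes, from -0.35 to 0.51 between regions at 4 weeks and from -0.19 to 0.39 at 12 weeks. A sample correlated best with its own number in 23 of 60, 25 of 76 and 45 of 75 cases, and at 12 weeks each sample had 5 numbers to choose from. That is a hint of pairing from the data and not from the design. Every same-numbered pair was above 0.1 in 1 of 12 pairs of genotype groups (HP KO and WT, lowest 0.11), 1 of 15 pairs of regions at 4 weeks (STR and SN, lowest 0.12) and 1 of 15 at 12 weeks (TH and SN, lowest 0.12), and in none of the others, so the block was kept as an alternative. With a replicate block the counts of calls were 0 for the striatal KO effect, 10 for the WT regions and 10 for WT striatum, the same as without it. For the genotypes they were 1 in KO and 0 in HET, but the 1 call in KO is at 4 weeks, where no block was fitted, so it was not checked in this way. Pkib had as few as 41 counts in a library, the fewest of the 5 genes.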
